A study of Homo sapiens and Mus musculus with 12 samples.

Results

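CD226, TIGIT, CD96 and CRTAM are receptors of natural killer (NK) cells that bind nectins and nectin-like adhesion proteins on other cells. CD226 and TIGIT share the poliovirus receptor PVR and NECTIN2 as ligands. CD226 activates the NK cell, whereas TIGIT carries an inhibitory tail. CD96 also binds PVR, and mouse CD96 binds NECTIN1 as well. CRTAM is a receptor of activated lymphocytes that binds the nectin-like protein CADM1.

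The rows with these 4 symbols were taken from the mouse count table and from the human count table. They were 4 of 22021 mouse rows and 4 of 18304 human rows, so 8 of 40325 rows in all, chosen by symbol. All 8 passed the filter on low counts.

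The comparisons were made in a mouse and in a human experiment. Mouse NK cells were sorted from spleens of C57BL/6J mice aged 8 to 12 weeks. WT mice carried Ehmt2 flox/flox, and KO mice carried Ehmt2 flox/flox together with Ncr1 iCre, which expresses Cre where the NK cell receptor gene Ncr1 is active. Both groups thus carry the floxed allele, and only KO mice carry Cre. EHMT2, also called G9a, is a histone methyltransferase that places H3K9me2. NK92MI, an NK-92 derivative engineered to produce IL-2, was treated with the EHMT2 inhibitor BIX-01294 (BIX) or with the solvent DMSO. The BIX dose was 0.25 µM for 5 days, as stated for this line. Each group held 3 libraries. The labels do not say whether the replicates came from separate mice or cultures, so the p-values measure the spread between these libraries, which may be technical.

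Library totals were 25891680 to 37438868 counts in mouse, with WT replicate 2 the smallest, and 16579469 to 17165446 in NK92MI. Levels are TMM-normalized CPM, which scale counts to library size. A gene was called at an adjusted p below 0.05 in edgeR's quasi-likelihood test over all genes tested. KO libraries held the targeted gene, Ehmt2, at 150 ± 18.1 CPM and WT libraries at 282 ± 5.94 CPM (SD, n = 3 each). The genotype label of the KO samples reads Ezh2-KO while their titles name EHMT2. Ezh2 was not called (log2 fold change −0.23, adjusted p = 0.116 by edgeR). The 12 genes of an NK cell list summed to 10549 to 12163 CPM in KO and 5479 to 9225 CPM in WT, and 7 of the 12 were called higher in KO. WT replicate 2 had the highest NK sum of the 3 WT libraries. In these bulk samples, fewer cells of a type and less RNA per cell cannot be told apart.

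Cd96 was the only one of the 4 receptors called between KO and WT mouse NK cells, and it was higher in KO. By this rule 4.44% of all 13189 mouse genes tested were called higher and 7.43% lower. Cd96 was about 2 times as abundant in KO. Crtam, Tigit and Cd226 were not called, with log2 fold changes of 0.70, 0.17 and −0.03. DESeq2 called 2 of the 4 (22.2% of its genes tested), and 2 had an unadjusted p below 0.05 in edgeR (35.8% of genes). With an adjusted p below 0.01 and a log2 fold change beyond 0.5, edgeR called none of the 4 and 0% of all genes, and DESeq2 called 1 of the 4 and 10.7%. These directions depend on the scaling and are given on both scales below.

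Cd96 (chromosome 16 of GRCm38, 46035657 to 46120251, minus strand) encodes a receptor whose role in NK cells has been described as both activating and inhibitory. It was at 134, 143 and 144 CPM in KO replicates 1 to 3 and at 58.3, 97.0 and 60.2 CPM in WT replicates 1 to 3. The KO libraries lay close together and all above WT, and WT replicate 2 was the highest WT library. The log2 fold change was 0.97 (SE 0.19, 95% interval 0.53 to 1.41), a fold of 1.96, with an adjusted p of 0.0329 by edgeR. It was exceeded by 1.67% of the genes tested. The exact two-sided permutation test gave p = 0.1, the smallest that 3 against 3 allow. Non-overlapping groups, counted in either direction, were found for 38.5% of all mouse genes tested and for 1 of the 4 receptors. With one library left out at a time the fold change stayed between 0.84 and 1.25. The adjusted p by edgeR then missed the threshold without KO replicate 2 (0.135), KO replicate 3 (0.135), WT replicate 1 (0.0841) or WT replicate 3 (0.119). The fits that missed it called only 0, 0, 99 and 14 genes of the whole table. In them the unadjusted p of Cd96 by edgeR was 0.0045, 0.0056, 0.0032 and 0.0050. Without WT replicate 2 its adjusted p was 0.00164, and 3530 genes were called in all, against 1565 with all libraries.

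Crtam (chromosome 9 of GRCm38, 40969691 to 41004628, minus strand) was at 42.8, 69.1 and 57.5 CPM in KO and at 29.1, 44.6 and 30.8 CPM in WT, again with WT replicate 2 highest in its group. The groups overlapped, because KO replicate 1 was below WT replicate 2. The log2 fold change was 0.70 (SE 0.22, 95% interval 0.20 to 1.20), with an adjusted p of 0.0677 by edgeR. The exact permutation test gave p = 0.2. The call depended on single libraries, since the adjusted p was 0.0404 without KO replicate 1 and 0.0139 without WT replicate 2, and DESeq2 gave 0.0113 with all libraries. The fits without KO replicate 1 and without WT replicate 2 called 2032 and 3530 genes in all, against 1565 with all libraries.

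Tigit (chromosome 16 of GRCm38, 43648867 to 43664146, minus strand), the inhibitory receptor of the set, was at 12.9, 19.4 and 18.1 CPM in KO and at 11.5, 22.1 and 11.5 CPM in WT. The highest value of all 6 libraries was in WT replicate 2, and the groups overlapped. The log2 fold change was 0.17 (SE 0.28, 95% interval −0.49 to 0.82; adjusted p = 0.693 by edgeR). With 1 library left out it ranged from 0.00048 without WT replicate 3 to 0.55 without WT replicate 2, where the adjusted p by edgeR was 0.0634.

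Cd226 (chromosome 18 of GRCm38, 89176967 to 89272229, plus strand), the activating receptor, varied least among the 4. It was at 36.8, 40.2 and 41.2 CPM in KO and at 38.4, 41.7 and 40.4 CPM in WT. The log2 fold change was −0.03 (SE 0.09, 95% interval −0.23 to 0.17; adjusted p = 0.841 by edgeR), the narrowest interval of the 4. Its groups overlapped in TMM-normalized CPM.

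**Figure D1:**
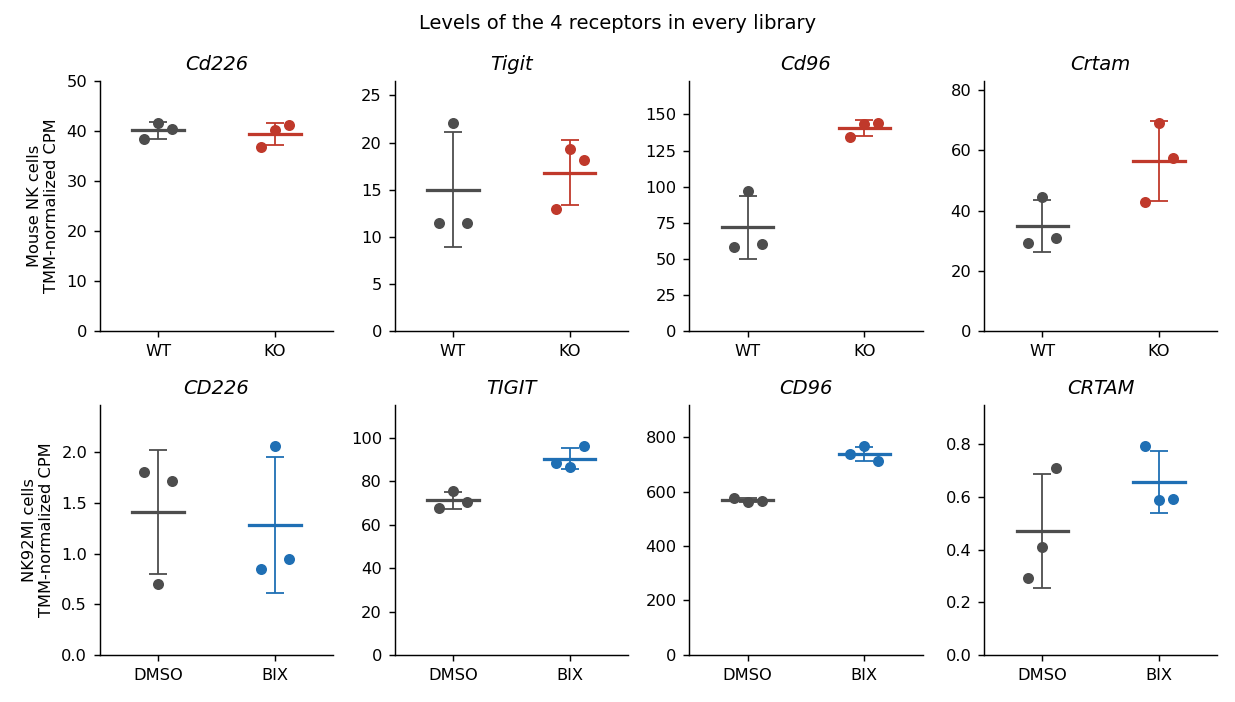
TMM-normalized CPM (y axis, from 0) of each receptor in every library, with mouse WT and KO NK cells in the upper row and NK92MI cells with DMSO or BIX in the lower row. Points are single libraries, bars the mean and SD of 3; Cd96, TIGIT and CD96 are the receptors whose groups do not overlap.

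Of the 12 NK list genes, 7 were called higher in KO as well, and CD226 is made by platelets as well. To put these beside the receptors, counts were expressed as a percentage of the geometric mean of the 12 NK list genes within each library. Cd96 was then at 21.3%, 19.5% and 19.5% in KO and 17.5%, 17.3% and 17.2% in WT, a narrower gap that still did not overlap. Cd226 was at 5.84%, 5.50% and 5.58% in KO and 11.5%, 7.43% and 11.5% in WT. Its KO libraries now lay below all WT libraries. Tigit was at 2.05%, 2.64% and 2.46% in KO and 3.45%, 3.94% and 3.27% in WT, also without overlap. Crtam was at 6.78%, 9.44% and 7.79% in KO and 8.73%, 7.96% and 8.77% in WT, with overlap. The share of all genes without overlap on this scale was not counted, so these separations are not set apart from those of other genes.

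When edgeR was scaled to the NK list, the median gene shifted from 0.01 to −0.81 on the log2 scale. Cd226 was then called lower in KO (log2 fold change −0.85, SE 0.27, adjusted p = 0.0160), while it was at −0.03 and not called with TMM. On that scale 66.4% of all genes tested were called lower, and Cd226 lay close to the shifted median. Cd96 was at 0.22 (adjusted p = 0.404), Tigit at −0.58 (adjusted p = 0.0735) and Crtam at −0.08 (adjusted p = 0.767). The sign of Tigit and Crtam thus turned with the scaling, and the call of Cd96 was lost. With TMM all 12 NK list genes had positive fold changes in KO, with a median of 0.79 on the log2 scale. This scale is therefore not independent of the genotype groups compared.

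**Figure D2:**
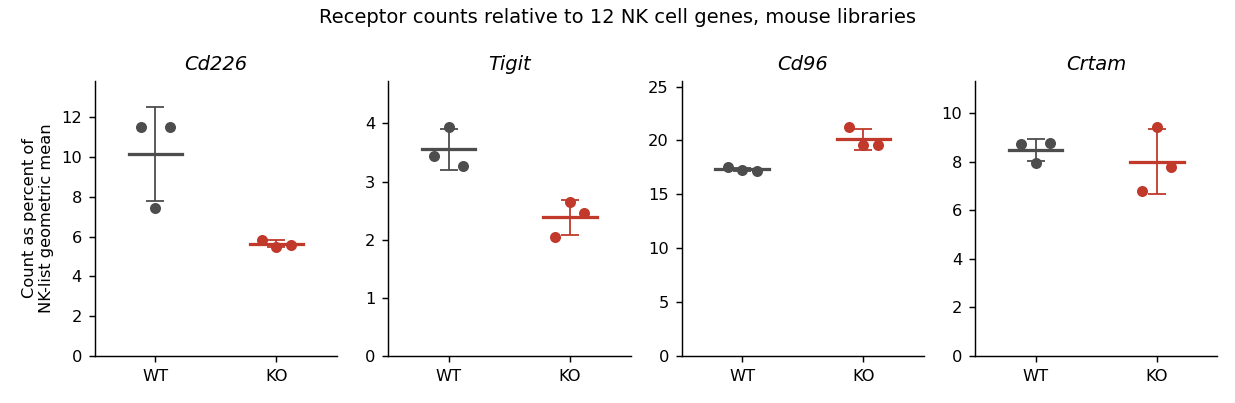
Counts of the 4 receptors as a percentage of the geometric mean of 12 NK cell genes in the same library (y axis, from 0), for mouse WT and KO. Points are libraries, bars the mean and SD of 3. Cd226 and Tigit lie lower in all KO libraries, Cd96 higher, and Crtam overlaps. With edgeR scaled to the same genes, 66.4% of all genes tested were called lower in KO.

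Ratios between 2 receptors within a library do not depend on any scaling. KO libraries held 3.64, 3.56 and 3.50 Cd96 counts per Cd226 count, and WT libraries 1.52, 2.33 and 1.49. On the log2 scale the Cd226 to Cd96 ratio was 1.04 lower in KO (−1.83 ± 0.03 against −0.80 ± 0.36, SD, n = 3 each, exact permutation p = 0.1, adjusted p = 0.15 over 6 pairs). The Tigit to Cd96 ratio differed by −0.79, the Cd226 to Crtam ratio by −0.72 and the Tigit to Crtam ratio by −0.48. Each of these was without overlap and had the same exact permutation p of 0.1, the smallest that 3 against 3 allow. Cd226 against Tigit (−0.24, exact permutation p = 0.5) and Cd96 against Crtam (0.31, exact permutation p = 0.2) overlapped. Whatever the library scaling, Cd96 and Crtam thus stood higher relative to Cd226 and Tigit in every KO library than in every WT library. No pair reached the threshold, and how many other gene pairs separate likewise was not counted. A ratio is free of library scaling but not of cell mixture, whose part was not tested. WT replicate 2, with the most Cd96 counts per Cd226 count in WT, also had the highest NK list sum in WT.

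Levels of different genes were compared per kilobase of annotated exons. In WT, Cd96 made up 51.1% of the summed per-length level of the 4, Tigit 24.9%, Cd226 13.4% and Crtam 10.7%. In KO the shares were 63.5%, 17.9%, 7.95% and 10.7%. Cd96 was thus the most abundant in both groups. The annotated Tigit length is only 919 bases, which raises its per-length level.

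The mouse libraries also held markers of other cells that carry these receptors. All 8 platelet genes had lower values in KO, 1 of them (Treml1) called, with sums of 1659 to 1759 CPM in KO and 2034 to 3177 CPM in WT. T cell genes summed to 155 to 261 CPM in KO and 194 to 289 CPM in WT, and 2 of the 9 tested, Cd3g and Cd28, were called higher. The list's median log2 fold change was −0.56, with negative values for Cd8a (−1.40), Cd4 (−1.21), Cd8b1 (−0.78), Cd5 (−0.70) and Cd3e (−0.56), none of them called. The study identifies splenic NK cells as CD3- NK1.1+, a gate that leaves out T cells. Genes of type 1 innate lymphoid cells summed to 136 to 154 CPM in KO and 105 to 158 CPM in WT, with none of 5 called. None of these markers was at 0 in all libraries. Their part in the receptor values was not tested.

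Ligand genes were examined next, since NK cell preparations can hold other cells that display them. Of 10 listed genes, 8 passed the filter, 4 were called lower in KO and 1 higher. Of all mouse genes tested, 7.43% were called lower and 4.44% higher. The median log2 fold change of the 8 was −0.93, against 0.01 for all genes tested. Cadm1, the CRTAM ligand, was at 14.5, 7.06 and 11.2 CPM in KO and 55.5, 15.9 and 35.3 CPM in WT (log2 fold change −1.71, SE 0.44, adjusted p = 0.0481 by edgeR). The WT values spread widely, and WT replicate 2 was only slightly above the highest KO library. Nectin4, which TIGIT can bind, fell by 1.52 (adjusted p = 0.0269 by edgeR). Nectin2, a ligand of TIGIT and CD226, fell by 1.43 (adjusted p = 0.0459), from few counts. Nectin1, the CD96 ligand, fell by 0.56 (adjusted p = 0.0486). Pvr, the ligand shared by CD226, TIGIT and CD96, was at 7.54 to 10.5 CPM in KO and 9.62 to 10.2 CPM in WT (log2 fold change −0.06, adjusted p = 0.792). The listed gene called higher was PVRIG, written in capitals in the mouse table, an inhibitory receptor for NECTIN2 and not a ligand. It was at 18.2, 31.5 and 23.0 CPM in KO and 15.1, 14.7 and 13.8 CPM in WT (log2 fold change 0.74, SE 0.19, adjusted p = 0.0481 by edgeR).

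No ligand gene was called without KO replicate 2, KO replicate 3, WT replicate 1 or WT replicate 3, fits in which only 0, 0, 99 and 14 genes of the whole table were called. With NK list scaling PVRIG turned to −0.10 (adjusted p = 0.754 by edgeR) while 7 of the 8 tested genes of the list were called lower, beside 66.4% of all genes. Beside these genes, macrophage genes summed to 1521 to 2788 CPM in KO and 2966 to 8874 CPM in WT, dendritic cell genes to 124 to 224 CPM and 297 to 498 CPM, B cell genes to 84.3 to 425 CPM and 463 to 1310 CPM, and neutrophil genes to 1.78 to 70.4 CPM and 62.2 to 644 CPM. All 27 tested genes of these 4 lists had negative fold changes in KO, 9 of them called, beside 7.43% of all genes tested called lower. Their part in the ligand values was not tested.

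**Figure D3:**
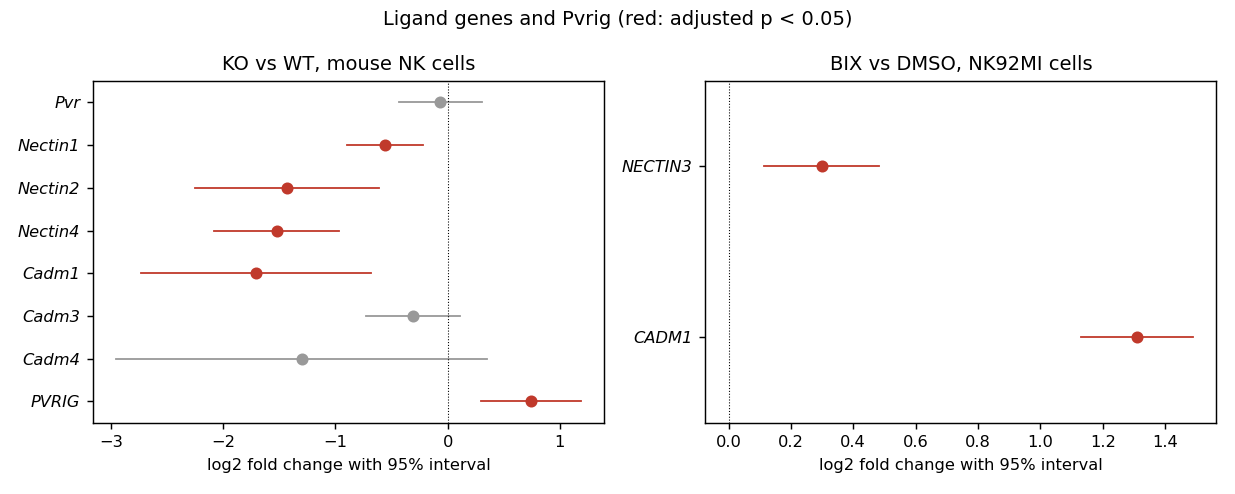
Log2 fold change (x axis) with its 95% interval for the listed ligand genes that passed the filter and for PVRIG, KO against WT in mouse NK cells at left and BIX against DMSO in NK92MI cells at right, with red for adjusted p below 0.05. CADM1 lies at 1.31 in NK92MI and Cadm1 at −1.71 in the mouse.

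Of 32 listed genes through which these receptors are known to signal, all tested in mouse, 1 was called higher and 1 lower. The shares of all mouse genes tested were 4.44% higher and 7.43% lower. Lck, a kinase of early receptor signalling, was at 403 ± 103 CPM (SD, n = 3) in WT and 666 ± 93.9 CPM in KO (log2 fold change 0.73, adjusted p = 0.0484 by edgeR), but at −0.05 with NK list scaling. Epb41l2, which encodes a membrane skeleton protein, fell by 0.60 (adjusted p = 0.0350). The median log2 fold change over the list was 0.07. Without any one of KO replicates 2 and 3 or WT replicates 1 and 3 no gene of the list was called, without WT replicate 2 12 were called, when 3530 genes were called in all, and with NK list scaling 25 of 32 were called, all lower, beside 66.4% of all genes.

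In NK92MI cells CD96 and TIGIT were both called higher with BIX, by 1.30-fold and 1.27-fold, and CD226 and CRTAM had no more than 35 counts in any library. Of 12727 genes tested, 18.4% were called higher and 18.4% lower. Non-overlapping groups, in either direction, were found for 47.9% of genes tested and for 2 of the 4 receptors. EHMT2 itself fell by 0.58 on the log2 scale (adjusted p = 0.000101 by edgeR).

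CD96 (chromosome 3 of GRCh38, 111292719 to 111665750, plus strand) was at 738, 766 and 714 CPM with BIX and at 578, 563 and 567 CPM with DMSO. All BIX libraries were above all DMSO libraries, and the DMSO libraries differed little. The log2 fold change was 0.38 (SE 0.06, 95% interval 0.25 to 0.50), with an adjusted p of 0.000209 by edgeR. The exact permutation test gave p = 0.1, the smallest that 3 against 3 allow. CD96 was among the most abundant transcripts of the line, above 97.8% of genes tested by DMSO level per length.

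TIGIT (chromosome 3 of GRCh38, 114276913 to 114310288, plus strand) was at 88.6, 86.8 and 96.1 CPM with BIX and at 67.9, 75.5 and 70.4 CPM with DMSO. Its groups did not overlap either. The log2 fold change was 0.35 (SE 0.07, 95% interval 0.19 to 0.50), with an adjusted p of 0.0019 by edgeR. CD96 and TIGIT remained called with each library left out in turn, with adjusted p-values up to 0.00297 for CD96 and up to 0.0172 for TIGIT. When edgeR was scaled to the human NK list, the median gene moved to −0.21. CD96 was then at 0.17 (adjusted p = 0.0956) and TIGIT at 0.14 (adjusted p = 0.174), so both calls were lost while the direction stayed. Of the 12 human NK list genes, 6 were themselves called higher with BIX and 3 lower, so this scale is not independent of the treatment. Neither passed an added limit of 0.5 on the log2 fold change with an adjusted p below 0.01, which 11.7% of genes passed in edgeR and 10.9% in DESeq2.

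The TIGIT to CD96 ratio hardly moved. BIX libraries held 8.33, 8.82 and 7.43 CD96 counts per TIGIT count and DMSO libraries 8.51, 7.45 and 8.05. The log2 ratio differed by −0.03 (exact permutation p = 0.8), and the groups overlapped. By per-length level CD96 made up 89.6% of the 4 with BIX and 89.4% with DMSO, and TIGIT 10.1% and 10.3%.

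CD96 and TIGIT were the human receptors that moved together, so the sequence before their RefSeq start sites (GRCh38.p14, plus strand) is shown, limited to the stretch outside annotated UTRs. The RefSeq table used here gave no entry for CRTAM. The CD96 stretch, chr3:111542004-111542149, runs from base −193 to base −48, counted from the start site. It lies inside the annotated CD96 interval given above, downstream of that interval's first base at 111292719. The TIGIT stretch, chr3:114293861-114293999, runs from −167 to −29 and is coding sequence in a longer annotated TIGIT transcript. Capitals mark TGTGGT, the core motif of RUNX factors, on either strand.
CD96: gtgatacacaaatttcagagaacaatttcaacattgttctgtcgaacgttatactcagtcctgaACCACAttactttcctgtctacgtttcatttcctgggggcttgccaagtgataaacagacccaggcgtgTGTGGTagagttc
TIGIT: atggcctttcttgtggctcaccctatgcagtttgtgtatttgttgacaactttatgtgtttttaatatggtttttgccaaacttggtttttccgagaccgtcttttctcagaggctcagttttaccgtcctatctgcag

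The CD96 stretch held TGTGGT at −129 on the minus strand and at −60 on the plus strand, and 6.48% of 35116 promoters held it in the same window. The TIGIT stretch held none. CAGGAA, an ETS motif, occurred 2 times in the CD96 stretch, both on the minus strand, against 14.6% of promoters with a match. The E-box CANNTG was found once in the CD96 window, at −85, and 44.1% of promoters held it. The AP-1 motif TGANTCA was in neither window. The same was true of the T-box motif AGGTGT and, likewise on both strands, of the GATA motif AGATAA. For GATA only this spelling was searched, and the printed CD96 stretch holds the near spelling TGATAA. The TIGIT window held none of the 6 motifs searched. A match is only a match of letters.

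CD226 (chromosome 18 of GRCh38, 69831158 to 69961803, minus strand) had counts of 14, 35 and 16 with BIX and 31, 12 and 29 with DMSO. Single libraries of each group were high and low, and the log2 fold change of −0.13 had a 95% interval from −1.03 to 0.78 (SE 0.42, adjusted p = 0.843 by edgeR). The interval spans both a fall and a rise, so a difference within it was not resolved with these libraries. Its exons overlap those of DOK6 on the other strand, and the strand setting of the counting is not given in the sources used here, so some of these counts may belong to DOK6. CRTAM (chromosome 11 of GRCh38, 122838500 to 122872643, plus strand) had counts of 13, 10 and 10 with BIX and 5, 7 and 12 with DMSO. Its log2 fold change was 0.48 with a 95% interval from −0.50 to 1.45 (SE 0.45, adjusted p = 0.444 by edgeR), and it ranged from 0.23 to 0.89 with 1 library left out, both without a DMSO library. The activating receptor CD226, at 36.8 to 41.7 CPM in mouse NK cells, was thus at 0.70 to 2.06 CPM in NK92MI. Mouse and human counts were normalized separately, so these levels are set side by side without a test.

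**Figure D4:**
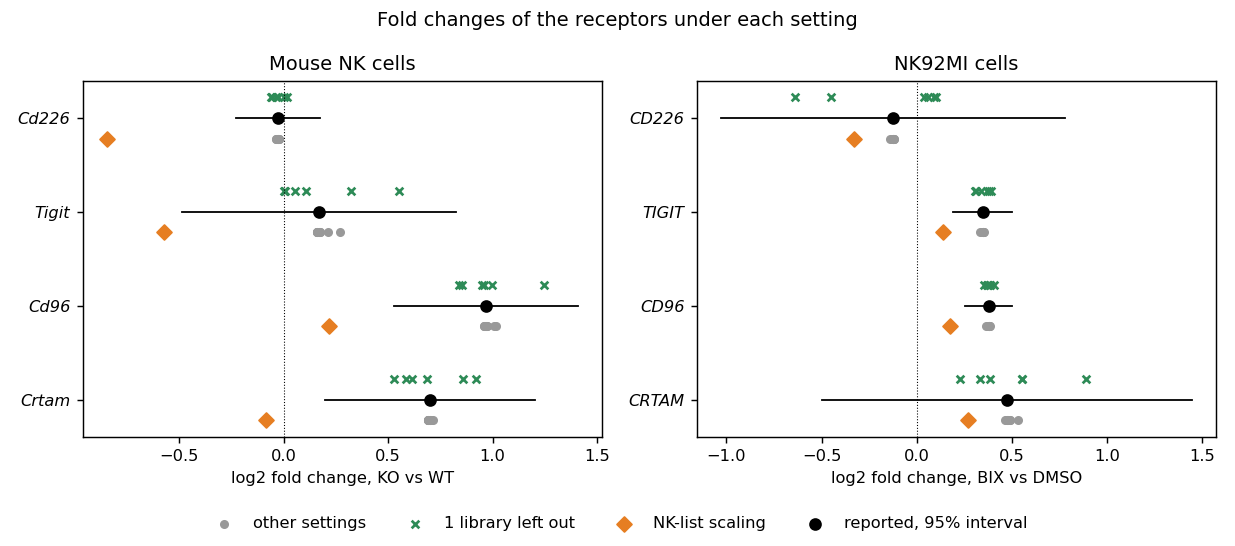
Log2 fold change (x axis) of each receptor, KO against WT in mouse NK cells at left and BIX against DMSO in NK92MI cells at right. Black points are the reported values with their 95% interval, grey points other settings, green crosses fits with 1 library left out and orange diamonds NK list scaling, which lies lowest for all 4 mouse receptors.

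Ligand genes in NK92MI were few. The human table held 6 of the 10 listed genes, the receptor PVRIG among them. Of these, 2 passed the filter, and both were called higher, as were 18.4% of all genes tested. CADM1 had counts of 828, 940 and 865 with BIX and 363, 347 and 368 with DMSO, a log2 fold change of 1.31 (SE 0.08, adjusted p = 1.17e-07 by edgeR). The CRTAM ligand thus rose in a line in which CRTAM itself was barely counted. NECTIN3, a nectin whose gene lies next to CD96 on chromosome 3 (111070071 to 111275563), was at 43.2, 45.1 and 38.4 CPM with BIX and 33.8, 35.5 and 33.8 CPM with DMSO (log2 fold change 0.30, adjusted p = 0.0142 by edgeR). With NK list scaling only CADM1 of the 2 was called, at 1.11, and NECTIN3 was at 0.10. PVR had 1, 5 and 3 counts with BIX and 3, 0 and 0 with DMSO.

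Among the 29 signalling genes tested in NK92MI, 15 were called lower, 5 higher and 9 were not called. Of all genes tested, 18.4% were called lower and 18.4% higher. The median log2 fold change of the list was −0.19 against −0.01 for all genes tested. FYN, a kinase that phosphorylates CD226 and TIGIT tails, fell by 0.66 (adjusted p = 4.37e-06 by edgeR), from 284 ± 11.6 CPM to 179 ± 8.96 CPM. ITGAL, the alpha chain of the integrin LFA-1 that associates with CD226, fell by 0.34 (adjusted p = 0.00037). PLCG2, a phospholipase downstream of activating receptors, fell by 0.53 (adjusted p = 0.000125), STAT5B, a transcription factor of cytokine signalling, by 0.57 (adjusted p = 9.62e-06) and ARRB2, an adaptor reported for TIGIT, by 0.72 (adjusted p = 5.99e-05). NFKBIA, the NF-kB inhibitor, rose most of the list, by 1.18 (SE 0.10, adjusted p = 1.91e-06), and STAT3 rose by 0.37 (adjusted p = 0.000427). TRAF6 (0.30, adjusted p = 0.0160), CDC42 (0.19, adjusted p = 0.0205) and GRB2 (0.17, adjusted p = 0.0444) were called higher as well. With NK list scaling NFKBIA was at 0.96 and still called, STAT3 at 0.17 and TRAF6 at 0.09 were not, and GRB2 (−0.04) and CDC42 (−0.02) turned sign. That scaling moves all genes down, with 36.1% of all genes called lower. Of the list, 12 genes were called without BIX replicate 1 and 13 without one of the DMSO libraries. In those fits 3491 and 3682 genes of the whole table were called, against 4692 with all libraries.

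Finally, the genes whose profile over the 6 libraries was most like that of each receptor were listed, by the root mean square (RMS) difference of centred log2 CPM. They are a description only. For Cd96 they were Cma1 (0.05), Foxd2 (0.05) and Klrk1 (0.06), of which Klrk1 encodes the activating receptor NKG2D and is on the NK list. For Crtam they were Prf1 (0.08), which encodes perforin and is on the NK list, Rnf43 (0.08) and Gata3 (0.09). Crtam ranked 221 among 9131 genes by likeness to Cd96 (RMS 0.24). Tigit was nearest to Ssbp2, Cep85 and Igf2r, and Cd226 to Smpd4, Wasf2 and Cnot2. In NK92MI, CD96 was nearest to CCNG2, STAT3 and CCDC6, and TIGIT to HMGB3, TBC1D22B and GATA3, all with RMS differences of at most 0.03. CD96 and TIGIT differed from each other by 0.09. The profiles of CD226 (nearest KLRA1P, SOS1-IT1 and NUTM2A-AS1) and CRTAM (nearest IFIT2, GON7 and GPR65) rest on few counts.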

How the data were processed

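RNA-seq counts of 12 libraries were analysed. The authors used fastp 0.23.4 for trimming, STAR 2.7.11b for alignment (GRCm38/mm10 for mouse, GRCh38/hg38 for NK92MI) and HTSeq 2.0.3 for counting. The values they deposited are raw counts per gene symbol. The annotation release and strand setting are not given in the sources used here. Positions and exon lengths come from GENCODE M21 and 44, which need not be the authors' annotation.

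Software was edgeR 4.0.16, limma 3.58.1 and DESeq2 1.42.0 under R 4.3.3. Each species was fitted alone with TMM, filterByExpr and edgeR's quasi-likelihood test, with calls at an adjusted p (Benjamini-Hochberg) below 0.05. The study used DESeq2 with an adjusted p below 0.01 and a log2 fold change beyond 0.5, run as alternatives. Ratios used a pseudocount of 0.5 and exact two-sided permutation tests. Procedures were tested on simulated data. The receptors, lists and tests were chosen with earlier results of these data known. Named genes are the receptors, up to 5 called genes of each list and direction, the checks of the labels and the 3 genes most like each receptor. PVRIG, Pvr, PVR, the called T cell genes and Treml1 are named in addition. The DMSO columns carry no replicate number. At this depth 1 count is 0.027 to 0.039 CPM in mouse and about 0.06 CPM in NK92MI.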

Additional observations from a re-analysis of the deposited data

How the results depend on the processing

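The alternatives covered scaling (DESeq2's size factors, library totals, the NK list), filtering (none, or a mean CPM of 1 or more), testing (limma-voom, DESeq2, robust dispersion), the replicate block, single libraries left out and an adjusted p below 0.01 with a log2 fold change beyond 0.5. Unadjusted p-values and DESeq2 with the stricter limits were added after seeing the data. Where no cause is given, it was not tested. CRTAM could not be fitted at a mean CPM of at least 1, which it does not reach. Counts of ligand genes below are over the whole list, which includes the receptor PVRIG.

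With NK list scaling Cd226 passed the threshold (−0.85), Cd96 (0.22), CD96 (0.17) and TIGIT (0.14) no longer did, and Tigit (−0.58) and Crtam (−0.084) turned sign. Receptors called were then 0 with BIX, ligand genes 1 with BIX, and signalling genes 25 in KO. Of all genes tested, 66.4% were called lower in KO on that scale. With BIX 36.1% were called lower and 932 of 12727 genes higher. With the stricter limits Cd96 (0.97), CD96 (0.38) and TIGIT (0.35) were lost in edgeR, as were CD96 (0.38) and TIGIT (0.35) in DESeq2. The smallest adjusted p of any mouse gene by edgeR was 0.0116, so no mouse gene could pass these limits there. Receptors called were 0 in both comparisons by edgeR and 0 with BIX by DESeq2, ligand genes 0 in KO (4 by DESeq2) and 1 with BIX (1 by DESeq2), and signalling genes 0 in KO (4 by DESeq2) and 5 with BIX (5 by DESeq2). Of all genes tested, 0% in KO and 11.7% with BIX passed these limits by edgeR. By DESeq2 10.7% and 10.9% passed. Crtam passed in DESeq2 (0.69) and at an unadjusted p (0.70). Receptors called in KO were 2 by DESeq2 and 2 at an unadjusted p, and signalling genes 8 and 10, or 4 without a filter. Over all genes tested, DESeq2 called 22.2%, and 35.8% had an unadjusted p below 0.05 in edgeR. Without a filter 1763 of 16465 genes were called. limma-voom called 2 ligand genes in KO, and 1508 of 13189 genes in all. The CD96 to CRTAM ratio turned to 0.024 at a pseudocount of 5.

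With 1 library left out, log2 fold changes ranged from −0.060 to 0.014 for Cd226, 0.84 to 1.25 for Cd96, 0.53 to 0.92 for Crtam, 0.00048 to 0.55 for Tigit, 0.23 to 0.89 for CRTAM and −0.64 to 0.10 for CD226. The ratio differences ranged from −0.49 to 0.13 for CD96 to CRTAM, −0.10 to 0.024 for TIGIT to CD96 and −0.52 to 0.056 for TIGIT to CRTAM. Counts called ranged from 0 to 2 receptors, 0 to 5 ligand genes and 0 to 12 signalling genes in KO, and from 1 to 2 ligand genes and 12 to 20 signalling genes with BIX. All genes called ranged from 0 to 3530 in KO and from 3491 to 5021 with BIX.

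The mouse groups share replicate numbers, but same-numbered libraries deviated together with correlations of 0.28, 0.35 and −0.19, and not every library correlated best with its own number, so the number was not taken as a pairing. With the replicate block Crtam was at 0.70 (adjusted p = 0.00644 by edgeR), 2 receptors and 10 signalling genes were called, and 3222 genes in all against 1565 without it. No paired analysis was possible for NK92MI because the control columns carry no replicate numbers.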
